A study of Mus musculus with 2 samples.

Results

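Integrins are cell surface receptors made of 1 α and 1 β subunit, and the 10 genes described here encode 7 α subunits (Itga1, Itga3, Itga4, Itga5, Itga6, Itga9 and Itgav) and 3 β subunits (Itgb1, Itgb3 and Itgb5). They were chosen by name, as rows whose Ensembl identifier carried one of these symbols, and they are 10 of the 19813 gene symbols with a row in both libraries. The data are counts of unique molecular identifiers (UMIs, which count each captured mRNA once) per gene and cell barcode from 1 droplet library of P6 and 1 of P15 retinal endothelial cells. Both libraries came from wild-type C57BL/6 mice and from retinas, and FACS had kept cells with CD31, a junctional protein of endothelium, and without the leukocyte protein CD45. The methods of the study state a balance of the sexes for its experiments in general, and the number of mice behind each library is not given in the sources used here.

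An integrin binds extracellular matrix outside the cell and, through talin and kindlin, the actin cytoskeleton inside it. The β subunit sets the partners: β1 pairs with most α subunits, whereas β3 and β5 pair in endothelial cells with αv. The α subunit sets much of the ligand: α1β1 binds collagens, α3β1 and α6β1 bind laminins, α5β1 and αv integrins bind fibronectin and other ligands with an RGD sequence, α4β1 binds fibronectin and VCAM-1, and α9β1 binds tenascin-C and related ligands. In the growing retinal plexus, endothelial sprouts migrate on a fibronectin-rich matrix laid down by astrocytes, and mature vessels rest on a basement membrane of laminin and type IV collagen that they share with pericytes.

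Values are UMIs of a gene per 1000000 UMIs of the same cells (CPM), with exact Poisson 95% intervals. Ratios are given with conditional binomial intervals and shares of cells with exact Clopper-Pearson intervals, also at 95%, and all of them measure counting error alone. Each age was 1 library without replicates, so no test was possible and age cannot be told apart from library. CPM was not divided by gene length, so levels are compared between cells for 1 gene and not between genes.

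The 2 libraries held 1984 P6 and 2141 P15 barcodes and 13958124 and 11589641 UMIs, and they shared 7 barcode sequences. The exclusion criteria of the study were read as 200 to 3500 genes, no more than 5% of UMIs from mitochondrial genes, and Hbb-bt, Neurod1 and Cd63 all at 0 UMIs. They kept 1424 P6 and 1644 P15 cells, with medians of 4985.5 and 4214.5 UMIs. All 6 endothelial markers examined (Pecam1, Cdh5, Cldn5, Kdr, Tek and Erg) were found in both libraries, together at 7249 CPM at P6 and 11742 CPM at P15, mostly Cldn5. Ratios of P15 to P6 were 1.78 for Cldn5, 1.77 for Erg and 1.29 for Pecam1, but 0.939 for Cdh5, 0.930 for Kdr and 0.918 for Tek. The 8 pericyte and smooth muscle markers summed to 11.4 CPM at P6 and 274 CPM at P15, mostly Rgs5, and 43 P6 but 491 P15 cells held at least 1 such UMI. Markers of red blood cells (22.6 and 173 CPM), of Müller glia and astrocytes (369 and 1227 CPM) and of retinal neurones (8.24 and 48.7 CPM) were also higher at P15. The platelet markers summed to 46.7 CPM at P6 and 32.0 CPM at P15, mostly Itga2b with 252 and 212 UMIs, whose ratio interval (0.724 to 1.05) included 1. Of the others, Pf4 had 104 and 17 UMIs, Ppbp 1 and 3, and Gp9 0 and 4. The part of cells other than pericytes in the integrin ratios was not tested. The 3 Y-linked genes with at least 100 UMIs were 2.32-fold to 2.57-fold higher at P15, and the part of sex in any difference between the libraries cannot be told apart from that of age. The 9382 genes that reached 100 UMIs over both libraries had a median ratio of P15 to P6 of 1.09, or 0.12 on the log2 scale. Where integrin ratios are called relative, they were divided by this median.

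Among the 10 subunits, Itga1 was higher and Itga4 lower at P15, and the common subunit Itgb1 was close in both libraries. A gene is called past the fold here when the ratio is at least 1.5 or at most 1/1.5. Of the 10 genes, 6 had at least 100 UMIs over both libraries, of which 1 was past the fold upward and 1 downward, as were 17.5% and 10.5% of all genes with that many UMIs. The other 4 subunits had too few UMIs for that count: Itga3 had 62 and 25 UMIs at P6 and P15, Itga9 had 17 and 8, Itgb3 had 9 and 9, and Itgb5 had 1 and 9. The 6 members had a median ratio of 1.01.

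**Figure D1:**
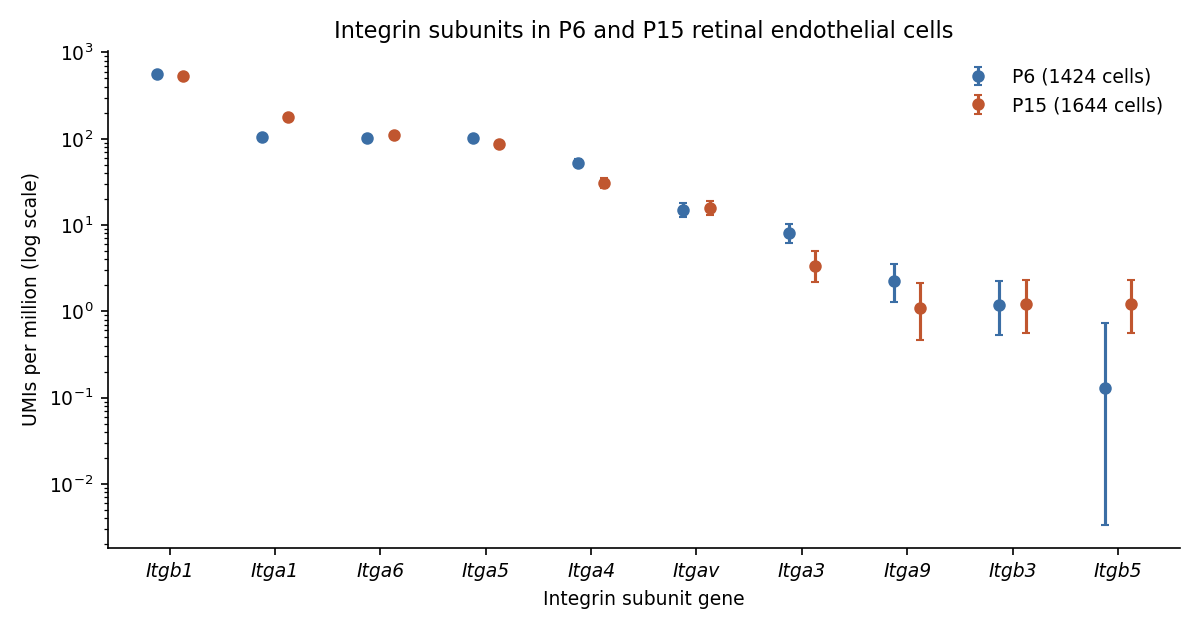
Levels of the 10 integrin subunit genes in P6 and P15 cells within the exclusion criteria, in CPM on a log axis. Points are summed levels and bars exact Poisson 95% intervals, which are shorter than the point for the genes with the most UMIs. Itga1 was 104 CPM at P6 and 177 CPM at P15, Itga4 was 53.0 and 30.9 CPM, and Itgb1 was 556 and 534 CPM.

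Itgb1 (chr8:128685654-128733200 on GRCm38, + strand), which encodes the shared β1 chain, was measured at 556 CPM (540 to 573) in P6 and 534 CPM (518 to 551) in P15 cells. Its ratio was 0.961, with an interval that reached from 0.920 to just above 1, or 0.881 relative to the median gene. A UMI of Itgb1 was found in 88.8% of P6 and 82.7% of P15 cells. These shares depend on depth, so cells were also thinned to 3000 UMIs each, leaving out 179 P6 and 481 P15 cells that had fewer. At this equal depth Itgb1 was found in 76.9% (74.5 to 79.3%) of 1245 P6 cells and 78.2% (75.7 to 80.5%) of 1163 P15 cells, and the intervals overlapped. Of the UMIs of the 3 β genes in P6 cells, not divided by gene length, 99.8% were Itgb1.

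Itga1 (chr13:114953096-115101964, − strand), the collagen-binding α1 chain, was 104 CPM (97.2 to 112) at P6 and 177 CPM (167 to 187) at P15. The intervals did not overlap, and the ratio was 1.70 (1.55 to 1.85), or 1.55 relative to the median gene. At 3000 UMIs per cell, the share of cells with an Itga1 UMI was 24.2% (21.8 to 26.7%) at P6 and 40.3% (37.5 to 43.2%) at P15, against 40.3% and 49.1% without thinning. Itga1 encloses the gene Pelo on the same strand, so reads of the 2 genes may not be fully separable where they overlap.

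Itga4 (chr2:79255426-79333123, + strand), the α4 chain of the fibronectin and VCAM-1 receptor α4β1, went the other way. Its level was 53.0 CPM (47.9 to 58.4) at P6 and 30.9 CPM (27.0 to 35.2) at P15, with a ratio of 0.584 (0.494 to 0.689) and a relative ratio of 0.536. Over all barcodes, including those outside the criteria, it was 0.691 and not past the fold. At equal depth an Itga4 UMI was found in 14.2% (12.3 to 16.3%) of P6 and 7.39% (5.96 to 9.05%) of P15 cells. The unthinned shares were 21.1% and 11.4%. Itga4 overlaps Cerkl on the opposite strand, and whether the counting used strand is not given in the sources used here.

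The remaining fibronectin and laminin receptor chains differed less. Itga5 (chr15:103344286-103366763, − strand), the α chain of the classical fibronectin receptor, was 103 CPM (96.2 to 111) at P6 and 86.3 CPM (79.7 to 93.3) at P15, a ratio of 0.835 (0.751 to 0.928). Itga6 (chr2:71745616-71858416, + strand), a laminin receptor chain, was 103 CPM (95.5 to 110) at P6 and 109 CPM (102 to 117) at P15, a ratio of 1.07 (0.967 to 1.18) that was 0.979 relative to the median gene, so its direction depended on the scaling. Itgav (chr2:83724397-83806916, + strand), the αv chain, had 115 UMIs at P6 and 117 at P15, with intervals of 12.4 to 18.1 and 13.1 to 19.0 CPM, and its ratio of 1.06 (0.809 to 1.38) likewise became 0.968. At equal depth, Itga5 was found in 25.1% of P6 and 23.7% of P15 cells, Itga6 in 24.3% and 25.0%, and Itgav in 4.66% and 4.04%, with overlapping intervals for each.

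The rare subunits gave wide intervals. Itga3 (chr11:95044474-95076801, − strand), the other laminin receptor chain, was 8.11 CPM (6.22 to 10.4) at P6 and 3.39 CPM (2.20 to 5.01) at P15, a ratio of 0.418 (0.252 to 0.676), or 0.384 relative to the median gene. Itga9 (chr9:118606690-118901003, + strand) was 2.22 CPM (1.30 to 3.56) and 1.09 CPM (0.469 to 2.14), and those intervals overlapped. Itgb3 (chr11:104608000-104670476, + strand), the β3 partner of αv, was 1.18 CPM (0.538 to 2.23) and 1.22 CPM (0.558 to 2.32). Itgb5 (chr16:33829665-33949338, + strand), the β5 partner of αv, was 0.131 CPM (0.00331 to 0.729) and 1.22 CPM (0.558 to 2.32), and is taken up again with the pericyte-rich barcodes.

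The share of each α gene in the UMIs of all 7 α genes does not depend on total UMIs per cell. The 7 genes together were 389 CPM (375 to 403) at P6 and 424 CPM (409 to 439) at P15. Itga1 made up 26.9% (25.3 to 28.5%) of these UMIs at P6 and 41.7% (40.0 to 43.5%) at P15. Itga4 went from 13.6% (12.4 to 14.9%) to 7.30% (6.41 to 8.26%), and Itga5 from 26.6% (25.0 to 28.2%) to 20.4% (19.0 to 21.8%). Itga6 was 26.4% at P6 and 25.8% at P15, with overlapping intervals. The make-up at P15 thus held more of the collagen receptor chain and less of the fibronectin receptor chains α4 and α5 than at P6, while Itgav, at 3.87% and 3.74%, had overlapping intervals.

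In single cells thinned to 3000 UMIs, UMIs of exactly 2 different α genes were found in 18.4% of P6 and 22.3% of P15 cells, and of exactly 1 in 38.6% and 43.1%. No α UMI was found in 36.5% of P6 and 30.1% of P15 cells, which at this depth does not show that the chains are absent. Itgb1 was found in 74.4% of the P6 cells without an α UMI and in 77.8% of those with UMIs of 1 α gene.

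Clusters were then compared, under the names that the study's source data give to 1560 P6 cells and to the first 438 P15 cells. The clusters were made from the expression of these same cells, integrins included, so levels by cluster are a description. Each cluster is compared with all other labelled cells of its library. At P6 the clusters held 198 Proliferative, 155 Primitive, 230 Stalk, 170 Tip, 42 Venous, 414 Cap-Venous, 149 Capillary, 162 Cap-Arterial and 40 Arterial cells. Median UMIs per cell lay between 3204 in Capillary and 7954.5 in Proliferative cells.

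**Figure D2:**
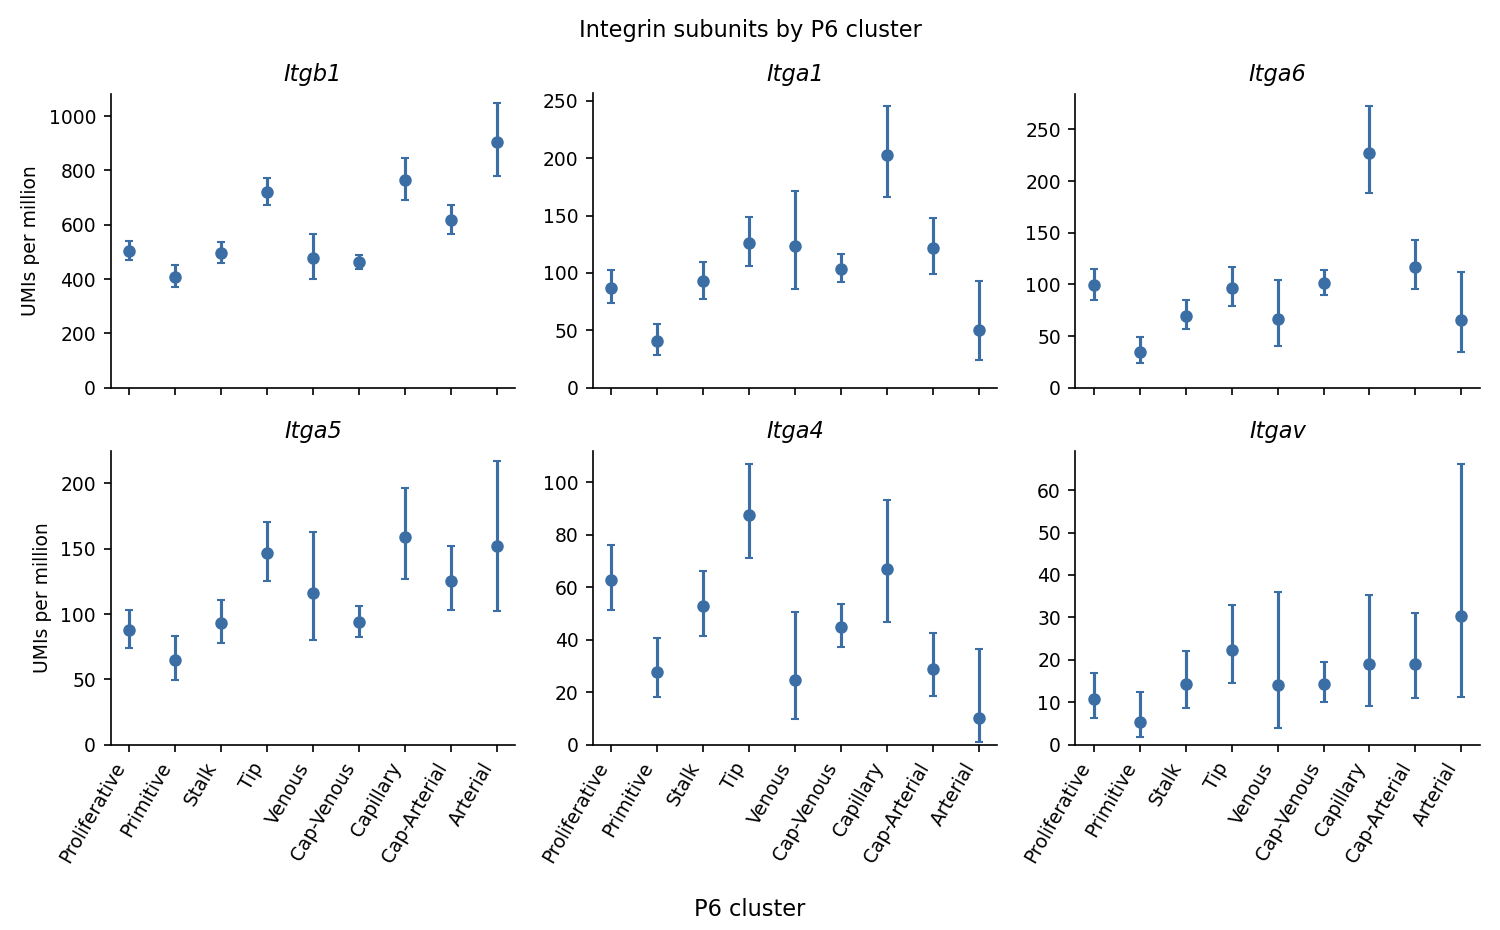
Levels of the 6 integrin genes with at least 100 UMIs in the labelled P6 cells, by P6 cluster, in CPM on linear axes that start at 0. Each point sums the cells of 1 cluster, with bars for exact Poisson 95% intervals. Itgb1 was highest in Arterial cells at 906 CPM, Itga1 and Itga6 in Capillary cells at 203 and 228 CPM, and Itga4 in Tip cells at 87.6 CPM.

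Itgb1 was lowest in Primitive cells at 409 CPM (369 to 452). It was 462 CPM in Cap-Venous, 478 CPM in Venous, 496 CPM in Stalk and 504 CPM in Proliferative cells. It was higher in Cap-Arterial cells at 617 CPM (565 to 673), Tip cells at 721 CPM (672 to 773), Capillary cells at 765 CPM (692 to 844) and Arterial cells at 906 CPM (778 to 1049). Of the 8 steps between neighbours in this order, 3 had a ratio interval above 1: Cap-Venous over Primitive, Cap-Arterial over Proliferative and Tip over Cap-Arterial. Arterial cells did not differ from Capillary cells beyond counting error. Their interval lay above those of both Venous and Cap-Venous cells, and the interval of Cap-Arterial cells lay above that of Cap-Venous cells. At 3000 UMIs per cell, an Itgb1 UMI was found in 87.5% (71.0 to 96.5%) of 32 Arterial and 70.3% (53.0 to 84.1%) of 37 Venous cells, whose intervals overlapped.

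Itga5 followed much the same order as its partner. It was lowest in Primitive cells at 64.8 CPM (49.5 to 83.2), and 87.8 CPM in Proliferative, 93.3 CPM in Stalk and 93.9 CPM in Cap-Venous cells. It was highest in Tip cells at 147 CPM (125 to 171), Arterial cells at 152 CPM (102 to 217) and Capillary cells at 159 CPM (126 to 197). None of the 8 neighbouring steps had an interval above 1, so only distant clusters can be told apart. Over the 9 clusters, log2(CPM + 1) of Itga5 and Itgb1 had a Pearson r of 0.902, as a description over clusters that share a library and differ in depth. The genes most like Itga5 were Mmp14, a membrane matrix metalloprotease (r = 0.968), Rnf13 (r = 0.967) and Nrp1, a VEGF co-receptor (r = 0.957), among 5871 genes with at least 200 UMIs.

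Itga4 had another order. Its level was highest in Tip cells, the leading cells of sprouts, at 87.6 CPM (71.1 to 107), followed by Capillary at 67.0 CPM, Proliferative at 62.7 CPM and Stalk cells at 52.7 CPM. It was lowest in Arterial cells at 10.1 CPM (1.23 to 36.6, from 2 UMIs), and 24.6 CPM in Venous, 27.6 CPM in Primitive and 28.7 CPM in Cap-Arterial cells. Clusters named for arteries and veins thus had lower levels than Tip cells, and the interval of Venous cells (9.89 to 50.7) overlapped that of Stalk cells. At equal depth, 22.4% (16.2 to 29.8%) of 156 Tip cells held an Itga4 UMI, against 9.02% (4.75 to 15.2%) of 133 Cap-Arterial cells and 0 of 32 Arterial cells, which allows at 3 counts a share of cells with a UMI of up to 9.38% (exact upper limit 10.9%). Itga4 and Itgb1 had an r of −0.15 over the clusters. Genes most like Itga4 included Nostrin, a regulator of nitric oxide synthase trafficking (r = 0.977), and Tead1, a transcription factor that acts with YAP (r = 0.952).

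Itga1 and Itga6, the collagen and the laminin receptor chain, resembled each other across clusters, with an r of 0.860. Itga1 ranged from 40.3 CPM (28.6 to 55.4) in Primitive and 50.6 CPM (24.3 to 93.1) in Arterial cells, through 87.2 to 126 CPM in 6 further clusters, to 203 CPM (166 to 245) in Capillary cells. Itga6 ranged from 35.0 CPM (24.1 to 49.2) in Primitive cells, through 65.8 CPM in Arterial, 66.8 CPM in Venous and 69.8 CPM in Stalk cells, to 228 CPM (189 to 272) in Capillary cells. The step to Capillary cells was beyond counting error for both, as 1.61 (1.24 to 2.08) over Tip cells for Itga1 and 1.94 (1.47 to 2.56) over Cap-Arterial cells for Itga6. For Itga6, thinned shares gave the same top cluster, with a UMI in 42.9% (32.5 to 53.7%) of 91 Capillary cells against 27.1% (19.7 to 35.5%) of 133 Cap-Arterial cells, although 58 shallower Capillary cells were left out. The genes most like Itga1 were Specc1l, Gja1, which encodes connexin 43, and Plekhg5 (r = 0.982 to 0.984), and those most like Itga6 were Thoc2, Wls, which is needed for Wnt secretion, and B230219D22Rik (r = 0.954 to 0.969). For Itgb1 they were Mfsd14a, Cers4 and Irak1 (r = 0.937 to 0.944).

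Itgav ranged from 5.31 CPM (1.72 to 12.4) in Primitive cells to 30.4 CPM (11.1 to 66.1) in Arterial cells, and no neighbouring step was beyond counting error. Among the rare genes, Itga3 was highest in Capillary cells at 23.0 CPM (11.9 to 40.1, from 12 UMIs) and Itga9 in Arterial cells at 15.2 CPM (3.13 to 44.4, from 3 UMIs). Itgb3 had 10 UMIs in labelled P6 cells, 5 of them in Primitive cells, and Itgb5 had 1.

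Against all other labelled P6 cells, the pairs of gene and cluster past the fold were as follows, each beside the share of 8019 genes past it. In Primitive cells 5 of the 6 genes were lower, with ratios of 0.337 for Itgav to 0.598 for Itga5, where 39.4% of all genes were lower. The median gene there had a ratio of 0.775, and relative to it Itga1 was 0.479, Itga6 0.442, Itgav 0.435, Itga4 0.668 and Itga5 0.771, so that Itga4 and Itga5 were then within the fold and Itgb1 stood at 0.954. In Tip cells Itga4 (1.90, 1.51 to 2.38) and Itgav (1.63, 1.01 to 2.52) were higher, as were 6.02% of all genes. Over labelled cells that also passed the criteria Itgav was 1.41 and not past the fold. In Capillary cells Itga6 (2.58, 2.11 to 3.13), Itga1 (2.11, 1.70 to 2.58) and Itga5 (1.57, 1.24 to 1.97) were higher, as were 20.1% of all genes. Itga5 fell short of the fold there relative to the median gene (1.487) and in thinned cells (1.495).

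Arterial cells had pairs in both directions. Itgb1 (1.71, 1.46 to 1.98) and Itgav (2.11, 0.761 to 4.71) were higher, as were 21.9% of genes, and Itga1 (0.491, 0.235 to 0.906) and Itga4 (0.196, 0.0237 to 0.711) were lower, as were 22.5%. Itga4 was also the only one of the 6 genes past the fold in Cap-Arterial cells (0.542, 0.344 to 0.817), where 12.3% of genes were lower, and in Venous cells (0.477, 0.191 to 0.990), where 17.5% were lower. No gene of the 6 was past the fold in Proliferative, Stalk or Cap-Venous cells.

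**Figure D3:**
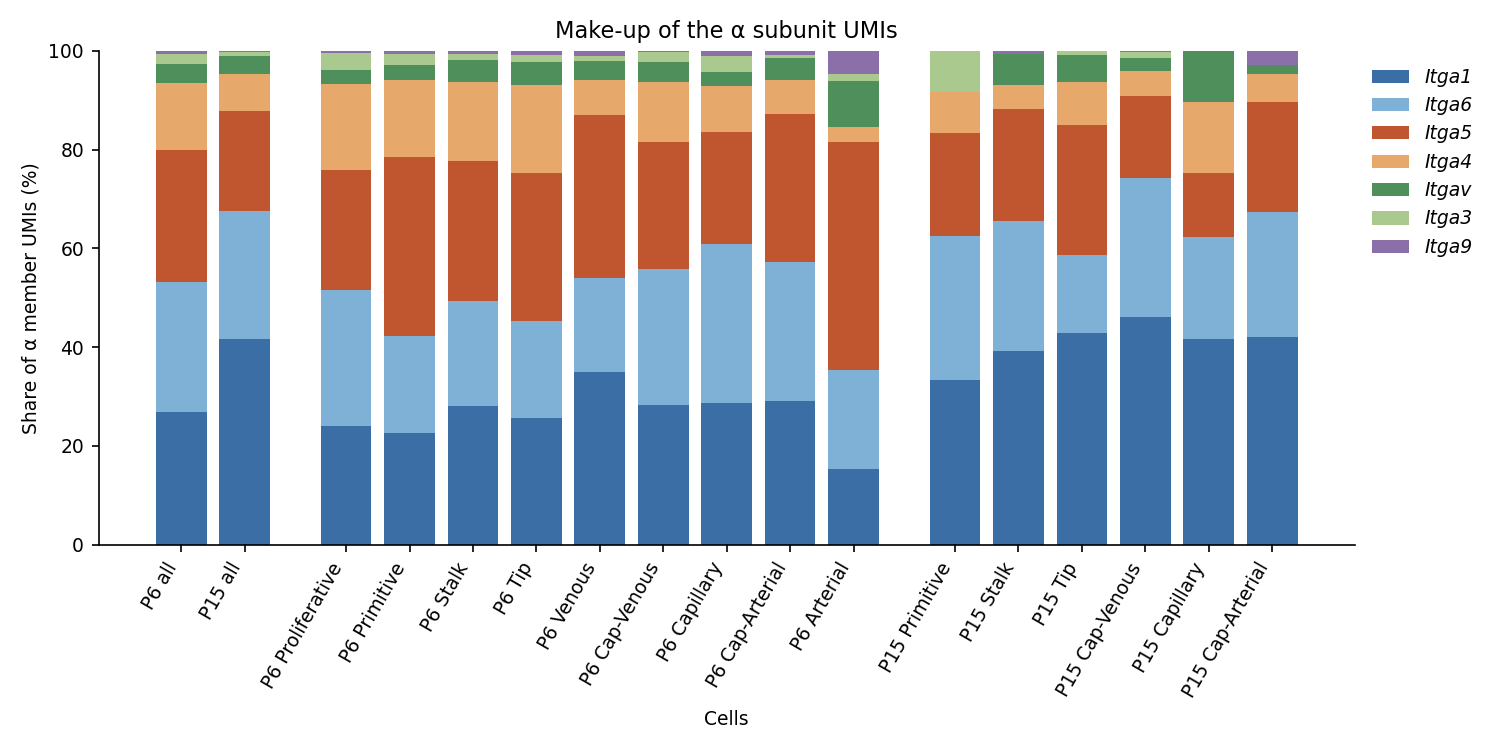
Share of each α gene in the UMIs of the 7 α genes, in percent, for all cells that passed the criteria at each age, for the 9 P6 clusters and for the 6 P15 clusters with at least 20 labelled cells. Stacked bars add to 100%, UMIs were not divided by gene length, and the P15 Primitive bar rests on 24 UMIs. Itga1 was 26.9% at P6 and 41.7% at P15 over all cells, and Itga5 was 46.2% in P6 Arterial cells.

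The make-up of the α UMIs showed these differences without reference to other genes. Itga5 was 46.2% (33.7 to 59.0%) of the 65 α UMIs of P6 Arterial cells and 36.3% (29.0 to 44.1%) of the 168 of Primitive cells, against 22.5% (18.3 to 27.1%) in Capillary and 25.6% (22.9 to 28.5%) in Cap-Venous cells. Itga4 was 17.9% (14.7 to 21.3%) in Tip, 17.4% in Proliferative, 16.0% in Stalk and 15.5% in Primitive cells. It was 6.86% (4.44 to 10.0%) in Cap-Arterial, 7 of 100 α UMIs in Venous and 3.08% (0.375 to 10.7%) in Arterial cells. Itga6 had its highest share, 32.2% (27.5 to 37.3%), in Capillary cells. Itga1 had its lowest, 15.4% (7.63 to 26.5%), in Arterial and its highest, 35.0% (25.7 to 45.2%), in Venous cells, and these intervals overlapped.

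At P15 the order was only in part that of P6, where the labelled cells sufficed. In 46 Tip cells Itgb1 was 711 CPM (616 to 816), above 493 CPM (427 to 568) in 85 Stalk and 498 CPM (449 to 550) in 134 Cap-Venous cells. The Tip interval overlapped those of 68 Cap-Arterial cells at 558 CPM (477 to 649) and of Capillary cells at 586 CPM (450 to 752). Itga1 was lowest in 36 Primitive cells at 64.6 CPM (27.9 to 127) and highest in 42 Capillary cells at 303 CPM (207 to 427). Itga4 reached 104 CPM (51.9 to 186) in Capillary cells, from 11 UMIs, and 38.7 CPM (19.3 to 69.3) in Tip cells. Its highest level was thus in Capillary and not, as at P6, in Tip cells, with overlapping intervals. Itga6 was again highest in Capillary cells, at 151 CPM. In Stalk, Cap-Arterial and Tip cells Itga6 was 114, 89.2 and 70.4 CPM, against 69.8, 117 and 96.5 CPM at P6. The labels given held only 14 Proliferative, 11 Arterial and 2 Venous P15 cells, in which Itgb1 had 56, 33 and 3 UMIs and Itga1 had 12, 1 and 0.

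Comparing the 2 ages within clusters keeps a change in the mix of clusters apart from a change inside them. The differences in Itga1 and Itga4 were also found inside clusters, while Itgb1 was within the fold in every cluster compared. At both ages 6 clusters had at least 20 labelled cells, and 22 pairs of gene and cluster had at least 100 UMIs. Of these, 4 were past the fold upward and 4 downward. Without cells that held a pericyte marker UMI the counts were 2 upward and 7 downward. The share of all genes was not computed for that setting, so those counts are not read as a result about the subunits. In these 6 clusters the pericyte and smooth muscle markers summed to 147 to 397 CPM at P15 and 1.06 to 14.2 CPM at P6. The share of all genes past the fold in a cluster is given with its pairs.

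**Figure D4:**
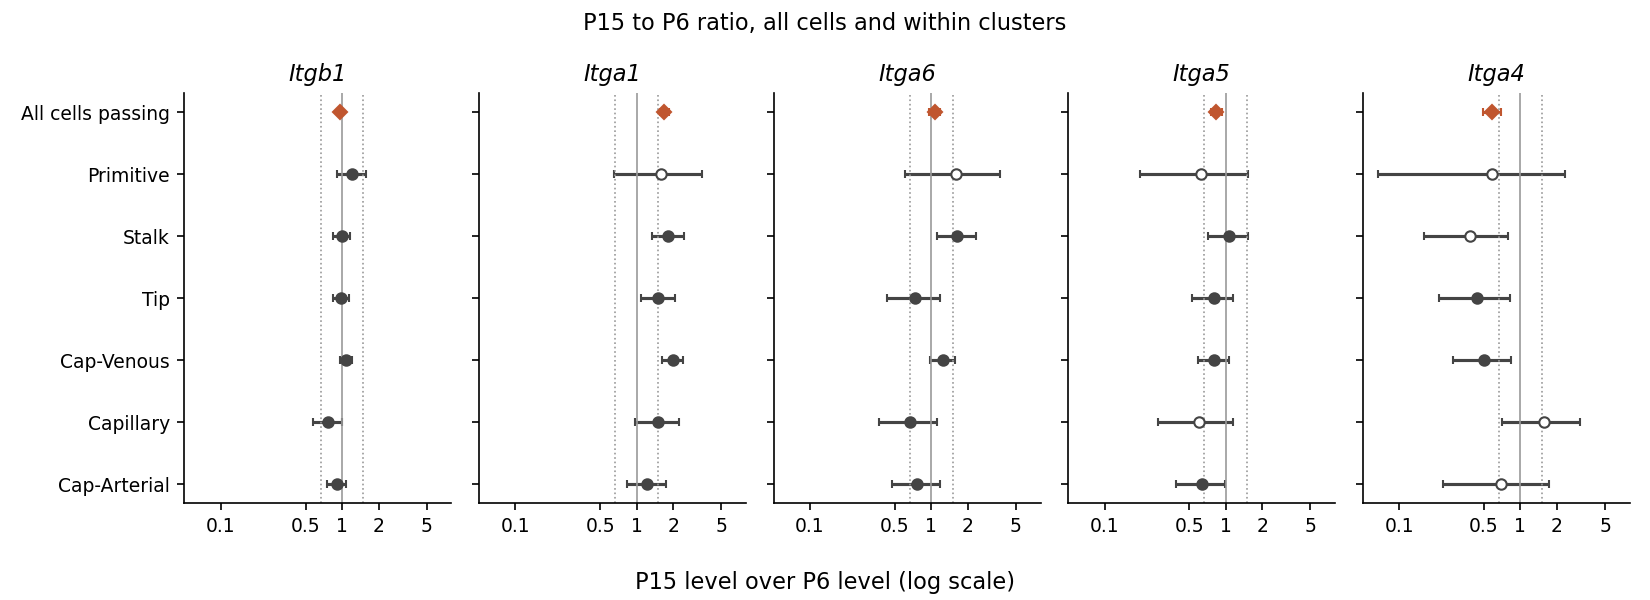
Ratio of the P15 to the P6 level of 5 integrin genes on a log axis, for all cells that passed the criteria (diamonds) and within clusters of labelled cells (circles). Bars are conditional binomial 95% intervals, open circles have under 100 UMIs over both ages, the solid line marks a ratio of 1 and dotted lines mark the fold of 1.5. Itga1 lay above 1 in all 6 clusters, with intervals that included 1 in Primitive, Capillary and Cap-Arterial cells, and Itgb1 lay between 0.766 and 1.20.

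Itga1 lay above 1 in all 6 clusters. In Stalk cells it was 92.6 CPM at P6 and 170 CPM at P15, a ratio of 1.83 (1.34 to 2.48). In Cap-Venous cells it was 104 and 206 CPM (1.98, 1.62 to 2.42), and in Tip cells 126 and 190 CPM (1.51, 1.08 to 2.08). The shares of all genes past the fold upward were 16.9% in Stalk, 16.0% in Cap-Venous and 13.4% in Tip cells. Intervals included 1 in Capillary (1.49, 0.972 to 2.23) and Cap-Arterial cells (1.22, 0.838 to 1.75). The same held for Primitive cells (1.60, 0.645 to 3.48), from 38 and 8 UMIs. The median gene within Capillary cells had a ratio below 1, and relative to it the Itga1 ratio there was 1.63 (1.06 to 2.43) and past the fold, while relative to the median gene in Tip cells it was 1.47 (1.06 to 2.03) and no longer past it. Weighting the P15 clusters by their P6 shares left a ratio of 1.55 over all labelled cells. That value also drew on the small P15 clusters, with 14 Proliferative, 11 Arterial and 2 Venous cells.

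Itga4 lay below 1 in 5 of the 6 clusters, and was past the fold downward in both where it had 100 UMIs. In Capillary cells it lay above 1, at 67.0 and 104 CPM (1.55, 0.712 to 3.13), from 35 and 11 UMIs. In Tip cells it was 87.6 CPM at P6 and 38.7 CPM at P15 (0.442, 0.214 to 0.826), where 13% of all genes were lower. In Cap-Venous cells it was 44.7 and 22.3 CPM (0.498, 0.281 to 0.831), where 11.5% of genes were lower. With labels predicted for the other P15 cells from their nearest neighbours, the Tip ratio was 0.728 (0.522 to 1.01) and the Cap-Venous ratio 0.497 (0.365 to 0.672).

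Itga5 was past the fold downward in Cap-Arterial cells, from 126 to 79.3 CPM (0.631, 0.387 to 0.991), as were 14.1% of genes, but not in thinned cells (0.716, 0.366 to 1.32). Its ratios were 0.792 to 1.06 in Stalk, Tip and Cap-Venous cells. Itga6 went both ways, upward in Stalk cells from 69.8 to 114 CPM (1.63, 1.12 to 2.34), where 16.9% of genes were higher, and downward in Capillary cells from 228 to 151 CPM (0.665, 0.368 to 1.12), where 22.9% of genes were lower. The Stalk ratio was no longer past the fold with predicted labels (1.49) or without cells that held a pericyte marker UMI (1.38, 0.834 to 2.20). The Capillary value rests on 16 P15 UMIs. Without cells that held a pericyte marker UMI it was 0.486 (0.205 to 0.990), with predicted labels it turned to 1.27 (0.935 to 1.70), and relative to the median gene it was 0.724, no longer past the fold. Itgb1 was not past the fold in any of the 6 clusters. Its ratios ran from 0.766 in Capillary to 1.20 (0.904 to 1.58) in Primitive cells.

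Pericyte RNA was higher in the P15 than in the P6 library, so the integrins were also read in the P15 barcodes that held most of it. These are 160 unlabelled P15 barcodes with at least 10 UMIs of the 8 pericyte and smooth muscle markers, a limit set after the data were seen. They had 8836 CPM of these markers against 190 CPM in labelled P15 cells, but also 482 CPM of Pecam1 against 693 CPM, so they are not free of endothelial RNA. Red blood cell markers were 5806 CPM there and 177 CPM in labelled cells, and their part in the integrin differences was not tested. Of the 10 subunits, Itgb5 differed most between these sets. It was 92.5 CPM (74.3 to 114) in the pericyte-rich barcodes and 1.40 CPM in the labelled cells, from 89 and 3 UMIs, a ratio of 66.0 (21.9 to 326). The 160 barcodes held 89 of the 97 Itgb5 UMIs of the library.

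**Figure D5:**
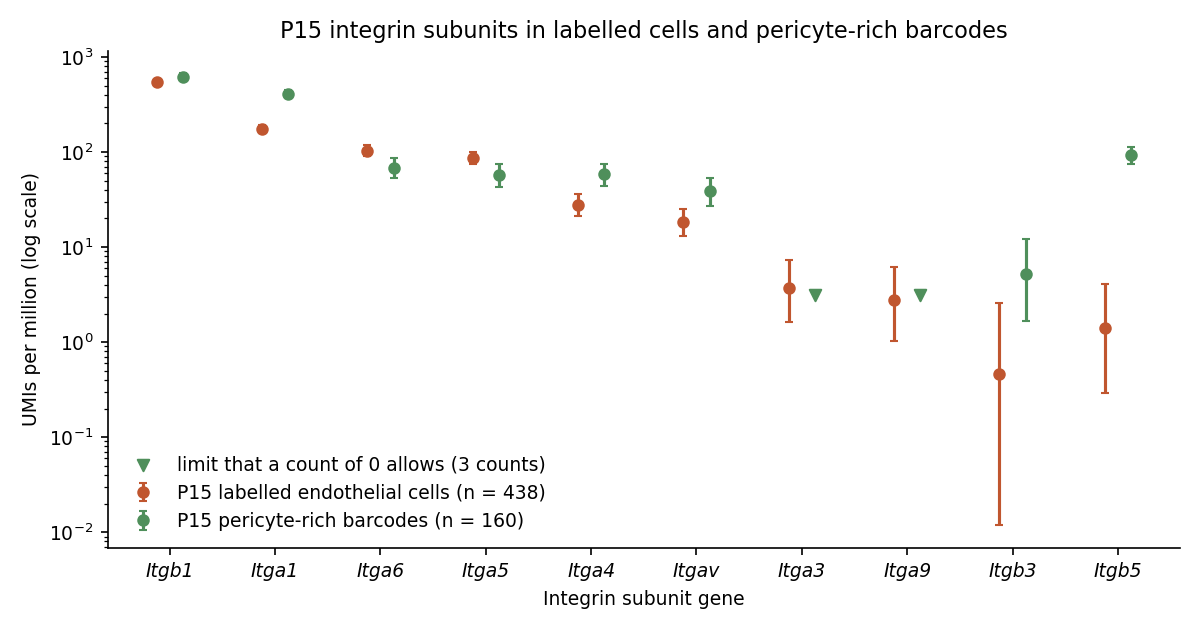
Levels of the 10 integrin genes at P15 in 438 labelled endothelial cells and in 160 unlabelled barcodes rich in pericyte markers, in CPM on a log axis. Points are summed levels, bars exact Poisson 95% intervals, and triangles mark genes without a UMI at the level of 3 counts. Itgb5 was 92.5 CPM in the pericyte-rich barcodes and 1.40 CPM in the labelled cells.

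The α chains differed between these barcodes and labelled cells in both directions. Itga1 was 409 CPM (369 to 451) against 176 CPM (2.33, 2.01 to 2.69), Itgav was 38.5 against 18.2 CPM (2.11, 1.31 to 3.40) and Itga4 was 58.2 against 28.0 CPM (2.08, 1.42 to 3.04). Itga5 (0.658, 0.478 to 0.893) and Itga6 (0.665, 0.497 to 0.879) were lower, and Itga3 and Itga9 had 0 UMIs, which allows 3.12 CPM. Itgb1 was 622 against 542 CPM (1.15, 1.04 to 1.27). Of subunits outside the 10, Itga7, a laminin receptor chain of muscle, had 40 of its 45 P15 UMIs in these barcodes, and Itga8, an RGD receptor chain of contractile cells, 12 of 14. The last 2 were chosen after their values were seen.

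As Itga1 was high in pericyte-rich barcodes, its ratio between the ages was recomputed without cells that held any UMI of the 8 markers, and was 1.71 against 1.70 with them. The Itga4 ratio was 0.645 without these cells and 0.584 with them. Within Stalk and Cap-Venous cells free of such UMIs, Itga1 ratios were 1.91 (1.31 to 2.73) and 2.01 (1.58 to 2.54), and within Tip cells the ratio was 1.41 (0.924 to 2.08). Of the 9 Itgb5 UMIs in P15 cells that passed the criteria, 2 were left without the cells of at least 10 marker UMIs. A background level of free RNA could not be set for the other genes, since only 16 P6 and 9 P15 unlabelled barcodes with at least 500 UMIs lacked Pecam1, Cdh5 and Cldn5, of which 4 and 5 held an Itgb1 UMI.

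Of 16 other integrin subunit genes listed, 11 had a row in both libraries, and 1 reached 100 UMIs. This was Itga2b, the α chain of the platelet fibrinogen receptor, at 33.0 CPM (29.0 to 37.3) at P6 and 28.8 CPM (25.0 to 32.9) at P15 (0.873, 0.724 to 1.05), found in 16.1% and 12.0% of cells. The platelet chemokine gene Pf4 had 104 and 17 UMIs in the same cells. Itga2, which encodes the collagen-binding α2 chain, is named for its values although it had under 100 UMIs. It had 70 UMIs at P6 and 2 at P15, or 9.15 CPM (7.14 to 11.6) and 0.271 CPM (0.0329 to 0.980), a ratio of 0.0296 (0.00352 to 0.111). The collagen-binding chains Itga1 and Itga2 thus differed between the libraries in opposite directions.

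Genes that work with integrins were read from fixed lists, with the same 17.5% and 10.5% as the shares of all genes past the fold. Of 12 activators and inhibitors with at least 100 UMIs, 1 was higher and none lower, with a median ratio of 1.18. The gene was Rras (1.61, 1.44 to 1.81), a small GTPase that promotes integrin activity, followed by Rap1b at 1.44, while Tln2 at 0.828 and Tln1 at 1.03, the talins, had the lowest ratios. Of 19 adhesion complex genes, 3 were higher and 1 lower, with a median of 1.08. Lims2, which encodes the adaptor PINCH2, was 16.9 CPM at P6 and 156 CPM at P15 (9.27, 7.72 to 11.2), and Tns1, which encodes tensin 1, was 25.8 and 105 CPM (4.07, 3.47 to 4.78). The third was Parvb at 1.82. Zyx, which encodes the mechanosensitive protein zyxin, was lower (0.631, 0.550 to 0.724), and Flna, which encodes filamin A, was 0.709.

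Of 9 membrane partners, 2 were higher and 1 lower, with a median of 1.05. Bsg, which encodes basigin, was 3934 CPM at P6 and 21726 CPM at P15 (5.52, 5.45 to 5.59), and Cd151, a tetraspanin that binds laminin receptors, was 1.57 (1.49 to 1.65). Among the other tetraspanins, Cd9 was 0.540 (0.499 to 0.583) and Cd82 was 0.833.

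The ligand lists differed from one another. Of 8 fibronectin and RGD ligand genes, 6 were higher and none lower, with a median of 1.71. Fn1, which encodes fibronectin, was 430 CPM at P6 and 714 CPM at P15 (1.66, 1.59 to 1.73). Vcam1, which encodes the other α4β1 ligand, had 153 and 259 UMIs (1.76, 1.43 to 2.16). A Vcam1 UMI was found in 5.41% of cells in both libraries, with up to 17 in 1 P6 cell and 35 in 1 P15 cell. The Vcam1 interval does not cover such spread between cells. Summed over cells, both ligands of α4β1 were higher in the library where Itga4 was lower. The highest ratios were 133 (36.5 to 1107) for Vtn, from 2 and 257 UMIs, and 4.95 (3.93 to 6.28) for Ccn2, and the lowest were 0.771 for Emilin1 and 0.920 for Tgfb1. Vtn, which encodes vitronectin, was 1961 CPM in the pericyte-rich barcodes, which held 1886 of its 2125 P15 UMIs, and 19.6 CPM in labelled P15 cells. The 2 genes Fn1 and Vcam1 were added to those named by the fixed rule because of their link to α4β1. Without cells that held a pericyte marker UMI, Vtn had under 100 UMIs, and 5 of the 7 remaining genes were higher, as were 17.0% of all genes. There Fn1 was 1.68 (1.60 to 1.77) and Vcam1 was 2.01 (1.61 to 2.51).

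Of 5 laminin genes, 2 were higher and none lower, with a median of 1.02. Lama5, a laminin chain of mature basement membranes, was 10.6 CPM at P6 and 33.0 CPM at P15 (3.11, 2.41 to 4.05), Lamb2 was 1.54 (1.27 to 1.87), Lamc1 was near its P6 level and Lamb1 was 0.753. Of 4 collagen genes, 3 were lower and none higher, with a median of 0.413. Col15a1 was 85.1 CPM at P6 and 6.92 CPM at P15 (0.0813, 0.0599 to 0.108), Col18a1 was 382 and 66.1 CPM (0.173, 0.157 to 0.190), and Col4a1 was 998 and 652 CPM (0.653, 0.630 to 0.677). Col4a2, the other chain of the main type IV collagen, was 0.932 (0.895 to 0.970). Without cells that held a pericyte marker UMI, 2 of these 4 genes were lower, Col15a1 and Col18a1, as were 10.9% of all genes. The collagen receptor chain Itga1 was thus higher at P15 in cells where these collagen genes were lower or near their P6 level.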

How the data were processed

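Retinal endothelial cells were measured in 1 droplet library for each age, from wild-type C57BL/6 mice. The authors deposited counts of UMIs per Ensembl gene and barcode, without normalization, in 1 table per age. The submitters' processing notes name genome build mm10 and Seurat 3.0, and the aligner, counter, annotation and use of strand are not given in the sources used here. Identifiers were given symbols from the reference gene table, and rows that shared a symbol were summed. Coordinates are those of GENCODE M21 on GRCm38, matched by symbol. Depth is stated in the report. UMIs without a symbol, under 0.015% of each library, were left out.

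Cluster names came from the source data of the study's cell map, of which the copy used here covers all 1560 P6 and the first 438 P15 cells. UMIs were summed over cells and divided by all UMIs of those cells. A gene entered the counts past the fold with at least 100 UMIs over both sets of cells, and a count of 0 was bounded with 3 counts. Labels of 1235 other P15 cells were predicted from 15 nearest neighbours on 13 principal components of 4929 variable genes without integrins, and 5-fold cross-validation on the labelled cells recovered 78.9% of the P6 and 82.4% of the P15 labels. Doublets were weighed only by leaving out barcodes with both Xist and Y-linked UMIs, 9 at P6 and 12 at P15 among the cells that passed.

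The subunits and lists were chosen with earlier results of these data known. Genes named beyond the 10 were other subunits with at least 100 UMIs, the 2 highest and 2 lowest P15 to P6 ratios of each list, and the 3 genes with the highest r over the 9 P6 clusters for each subunit with at least 200 UMIs. Exceptions are stated where they occur, and 1 gene that the rule names is not reported here. Alternatives covered the filter on cells, the fold and the minimum of UMIs, scaling, thinning, predicted labels and cells with pericyte marker UMIs, and those that leave out pericyte-rich barcodes or, by list and by cluster, cells with such UMIs, and the thinning by cluster, were chosen after seeing the data. The ratio step was tested on simulated counts of the P15 to P6 comparison over 9137 genes. All 194 genes changed 3-fold were past the fold in the right direction, as were 50 of 8943 unchanged genes in some direction. Of the intervals, 95.3% held the true ratio. The simulated counts were Poisson draws at P6 rates without variation between cells or libraries, so they test only the arithmetic and the counting error. The 3-fold changes were larger than the differences of Itga1 and Itga4. Tools were Python 3.11.15, scanpy 1.11.5, pandas 2.3.3, scikit-learn 1.9.0, scipy 1.17.1, numpy 2.4.6 and matplotlib 3.10.9.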

Additional observations from a re-analysis of the deposited data

Results flagged for a closer look

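Itga6 differed between P15 and P6 in opposite directions in 2 clusters. Its ratio was 1.63 (1.12 to 2.34) within Stalk cells and 0.665 (0.368 to 1.12) within Capillary cells. The difference between the clusters was not tested, and the Capillary interval includes 1. The Stalk ratio was within the fold with predicted P15 labels (1.49) and without cells that held a pericyte marker UMI (1.38, 0.834 to 2.20). The Capillary ratio was 1.27 with predicted labels and 1.18 in cells thinned to 3000 UMIs, but 0.486 (0.205 to 0.990) without cells that held a pericyte marker UMI.

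In the P6 library, 98 unlabelled barcodes with a UMI of the neuronal gene Neurod1, which entered no comparison in the report, held more of 2 subunits than labelled endothelial cells did. Itga3 was 30.1 CPM in these barcodes and 7.68 CPM in labelled cells, from 26 and 74 UMIs, a ratio of 3.92 whose interval began at 2.41. Itgb5 was 10.4 CPM and 0.104 CPM, from 9 and 1 UMIs, a ratio of 100 (13.9 to 4403), and 9 of its 17 P6 UMIs lay there. Itgb1 was lower in the same barcodes, at 227 CPM against 539 CPM (0.421, 0.363 to 0.486). Endothelial RNA was also found there, with Pecam1 at 182 CPM against 513 CPM and Cldn5 at 1738 CPM against 5380 CPM in labelled cells. Its part in the Itgb1 level was not tested. Counting intervals are the only error given, and barcodes with Neurod1 numbered 17 at P15, where Itga3 and Itgb5 had 0 UMIs.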

How the results depend on the processing

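No paired analysis was possible because each age was 1 library. Of 229 alternative values of single ratios, 216 stayed inside the interval of the value reported, 11 moved outside it and 2 were counted as reversed. Both reversals were Itga6 within Capillary cells, at 1.27 with predicted labels and 1.18 with thinned cells, against 0.665. A change of direction was counted as a reversal only where the value reported was past the fold. The P15 to P6 ratios of Itga6 (1.07) and Itgav (1.06) were not, and fell to 0.979 and 0.968 relative to the median gene. The P15 to P6 ratio of Itga1 ranged from 1.55 with the P15 clusters at P6 shares to 1.99 with all barcodes, and that of Itga4 from 0.520 with thinned cells to 0.691 with all barcodes, which is no longer past the fold. There the 1 gene lower was Itga3 (0.276).

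Of 58 alternative counts past the fold, 47 stayed within 1.5 times. Against 1 gene higher and 1 lower over both libraries, all barcodes gave 2 higher, no upper gene limit gave 2 lower, a minimum of 20 UMIs gave 3 lower, no minimum gave 2 higher and 3 lower, and a fold of 2 gave 0 higher and 0 lower, where 6.24% and 4.81% of all genes were past it. A fold of 2 left 3 of 7 higher pairs among P6 clusters. Within clusters, predicted labels gave 2 lower pairs in place of 4, and leaving out cells with a pericyte marker UMI gave 2 higher and 7 lower. Except at a fold of 2 over both libraries, the shares of all genes past the fold in these settings are not given here. Those counts are not read as a result about the subunits. The causes were not tested, except that fewer or more genes and cells entered some alternatives. Rare subunits, and clusters with few P15 cells, were limited by UMI counts.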
